A study of Mus musculus with 3 samples.

Results

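The genes described here are 48 genes of DNA replication and mitosis, read in RNA-seq of mouse intestine. They are a list of names taken from the 21983 genes of the deposited count table. The list's rule uses no measured value, but earlier results of these data were known when it was drawn up. The 25 replication genes run from Mcm2 to Slbp and the 23 mitotic genes from Mki67 to Ttk. The study sequenced 3 groups of wild-type pups, with 1 library per group, and all animals were killed after 96 h. Control pups were fed by their dam and were given PBS, with neither hypoxia nor cold. NEC pups, a model of necrotizing enterocolitis (an inflammatory bowel disease of newborns), were given PBS and gavaged with 40 µl of 33% Esbilac formula at 4 h intervals. Every 12 h they also spent 100 s in 99.9% nitrogen and then 10 min at 4 °C. PCI34051+NEC pups had the same formula, hypoxia and cold and in place of PBS were given PCI34051, an inhibitor of the histone deacetylase HDAC8, at 10 mg/kg/d for 5 days. Formula, hypoxia and cold therefore differed together between NEC and control and cannot be told apart. The labels give neither the age of the pups in days nor their sex, nor the stretch of intestine, nor how many pups went into a library. The column of the PCI34051+NEC library was assigned because it alone names an inhibitor, although its name does not match the sample's description letter for letter.

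Before a cell divides it loads the ring-shaped MCM helicase onto replication origins with the loading factors CDC6 and CDT1, then activates it with MCM10, CDC45 and GINS in S phase. Primase and DNA polymerases copy the strands, the clamp PCNA and its loader RFC keep them on the template, and ribonucleotide reductase and thymidylate synthase supply nucleotides. Mitosis follows under cyclin B with CDK1, with Aurora and Polo kinases, the spindle checkpoint, the kinetochore and spindle motors, and it ends in cytokinesis. E2F factors drive most replication genes at the entry to S phase, whereas many mitotic genes are held down until G2 through a promoter element called CHR, often with CCAAT boxes beside it. In the intestine these genes are known from the dividing cells of the crypts and, in newborns, of the growing wall.

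The 2 gene classes differed in these promoter letters, and 6 promoters are printed here to show it. RefSeq windows on GRCm38.p6, from 250 bases before to 50 bases after a gene's start, were matched for 40 of the 48 members (21 replication and 19 mitotic genes, 42 windows, since Mcm7 and Prc1 had more than 1 start). The E2F-type letters searched were TTTCCCGC, TTTGGCGC, TTTCGCGC and TTTGCCGC, the CHR-type letters were TTTGAA and TTCGAA, and CCAAT was the last, all on both strands. E2F-type letters stood in 8 of 22 replication windows (36.4%) and in 1 of 20 mitotic windows (5%, that of Cdk1), against 2.26% of all 32851 windows. CHR-type letters stood in 16 of 20 mitotic windows (80%) and in 4 of 22 replication windows (18.2%), against 19.2% of all. The printed promoters belong to the members of each class with the largest log2 folds between NEC and control, among those that reach 5 CPM in either library and hold a match of their class's type. Each runs 5′ to 3′ on the gene's strand, with the E2F-type letters in capitals for Mcm6, Rfc3 and Cdt1 and the CHR-type letters in capitals for Bub1b, Kif23 and Mki67:
Mcm6, chr1:128359656-128359955, minus strand: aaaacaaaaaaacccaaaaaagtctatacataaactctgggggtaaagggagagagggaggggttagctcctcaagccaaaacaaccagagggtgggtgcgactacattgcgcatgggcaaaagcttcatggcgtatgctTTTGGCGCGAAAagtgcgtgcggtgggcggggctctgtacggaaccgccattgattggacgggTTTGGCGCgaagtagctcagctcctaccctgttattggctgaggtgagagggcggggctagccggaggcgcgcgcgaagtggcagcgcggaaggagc
Rfc3, chr5:151651159-151651458, minus strand: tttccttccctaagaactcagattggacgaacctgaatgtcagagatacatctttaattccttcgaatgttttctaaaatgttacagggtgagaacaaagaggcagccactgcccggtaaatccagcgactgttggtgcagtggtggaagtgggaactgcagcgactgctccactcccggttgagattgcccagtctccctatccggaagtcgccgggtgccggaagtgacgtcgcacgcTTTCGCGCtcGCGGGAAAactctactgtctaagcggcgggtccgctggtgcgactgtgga
Cdt1, chr8:122567765-122568064, plus strand: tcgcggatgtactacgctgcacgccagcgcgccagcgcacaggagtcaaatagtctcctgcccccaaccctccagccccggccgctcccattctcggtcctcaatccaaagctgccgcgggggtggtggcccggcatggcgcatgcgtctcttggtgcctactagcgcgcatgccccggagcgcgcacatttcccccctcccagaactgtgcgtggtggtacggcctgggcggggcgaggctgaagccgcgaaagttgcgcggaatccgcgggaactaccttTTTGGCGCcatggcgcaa
Bub1b, chr2:118597961-118598260, plus strand: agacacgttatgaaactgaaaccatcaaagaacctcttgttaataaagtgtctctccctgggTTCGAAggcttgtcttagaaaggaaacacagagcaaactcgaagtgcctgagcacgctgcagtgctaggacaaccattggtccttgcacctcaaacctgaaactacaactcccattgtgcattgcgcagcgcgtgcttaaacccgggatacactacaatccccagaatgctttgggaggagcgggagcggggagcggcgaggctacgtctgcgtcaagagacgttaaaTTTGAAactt
Kif23, chr9:61946750-61947049, minus strand: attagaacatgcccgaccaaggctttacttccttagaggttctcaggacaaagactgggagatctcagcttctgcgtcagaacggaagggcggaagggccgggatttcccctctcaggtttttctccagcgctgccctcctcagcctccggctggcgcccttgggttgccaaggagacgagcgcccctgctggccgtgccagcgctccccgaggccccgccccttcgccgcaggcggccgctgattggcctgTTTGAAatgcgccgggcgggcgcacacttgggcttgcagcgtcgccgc
Mki67, chr7:135716330-135716629, minus strand: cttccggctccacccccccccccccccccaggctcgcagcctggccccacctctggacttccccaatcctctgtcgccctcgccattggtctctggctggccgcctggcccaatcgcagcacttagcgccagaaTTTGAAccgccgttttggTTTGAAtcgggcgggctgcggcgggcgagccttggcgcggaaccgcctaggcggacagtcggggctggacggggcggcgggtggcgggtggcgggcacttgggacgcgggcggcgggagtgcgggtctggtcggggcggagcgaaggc

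Mcm6 had 3 E2F-type matches, a pair of which share letters on opposite strands, Rfc3 had 2 and Cdt1 had 1. Mki67 and Bub1b had CHR-type letters at 2 places and Kif23 at 1. The Rfc3 window also holds TTCGAA, which reads the same on both strands and is left in lower case. CCAAT stood in 72.7% of replication and 85% of mitotic windows, against 37.4% of all windows. CHR-type letters and CCAAT stood together in 15 of 20 mitotic windows (75%) and in 7.52% of all windows. Relative to the start site, the 24 CHR-type matches of the mitotic genes had a median position of -16.5 bases and ranged from -188 to 41. Genes at 1 CPM or more in these libraries held E2F-type letters in 3.51%, CHR-type letters in 14% and CCAAT in 37.2% of their windows. A match is a description of the sequence and not evidence of a factor bound there.

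**Figure D1:**
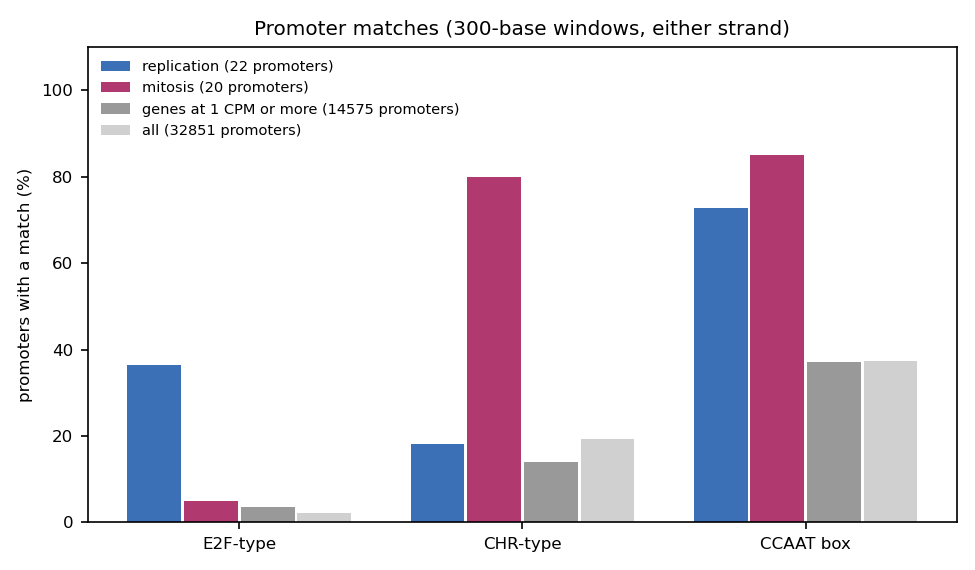
Percent of 300-base promoter windows (vertical axis) that hold E2F-type, CHR-type or CCAAT letters, for the replication genes, the mitotic genes, genes at 1 CPM or more and all windows of the RefSeq table. The E2F-type bar is tallest for replication genes (36.4%) and the CHR-type bar for mitotic genes (80%).

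Levels are given as CPM, counts scaled to a common library size with TMM factors, and values listed in 3s follow the order control, NEC, PCI34051+NEC. Library totals were 15076413, 10650638 and 16497580 counts. The 48 genes took 7452, 6813 and 7607 of those counts, or 0.0494%, 0.0640% and 0.0461% (Wilson 95% intervals 0.0483 to 0.0506, 0.0625 to 0.0655 and 0.0451 to 0.0472). Intervals cover counting error only, because PCR copies of a molecule cannot be recognised and because each group is 1 library. No p-value or standard error can be given, and the spread between pups is unknown. Kif11, a spindle motor, was listed at 0 counts in all 3 libraries. Since 3 counts is the limit that a 0 allows, its level was below 0.189, 0.274 and 0.197 CPM by counting error alone. That limit holds only if reads of Kif11 were assigned to it, which the sources used here do not show. At 1 CPM or more stood 47, 44 and 41 of the 48, and at 10 CPM or more 12, 22 and 16, so most of these genes were low in whole intestine.

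The make-up of the libraries differed. Mitochondrially encoded genes took 32.4% of NEC counts, against 4.88% of control and 3.73% of PCI34051+NEC counts. Summed levels of 8 epithelial markers were 6739 CPM in control, 3048 in NEC and 7048 in PCI34051+NEC. Of the 8, 2 were at least 2-fold higher in NEC than in control and 4 lower. Among all measured genes, 24.2% were higher and 22.9% lower in that comparison. Absorptive enterocyte markers (10 genes) summed to 41686, 20330 and 108467 CPM. At least 2-fold higher in PCI34051+NEC were 9 of 10 against control (6.55% of all genes) and 9 of 10 against NEC (25% of all genes). The sums of 8 smooth muscle markers were 1551, 11506 and 1481 CPM, with 7 of 8 at least 2-fold higher in NEC than in control (24.2% of all genes). Fibroblast markers (7 genes) summed to 788, 2826 and 754 CPM, and enteric neuron and glia markers (8 genes, 1 of them at 0 in NEC) to 69.1, 393 and 64.8 CPM. B cell markers summed to 51.4, 4.84 and 1.84 CPM with Cd79b and Ms4a1 at 0 in NEC, and T cell markers to 24.3, 5.21 and 2.36 CPM with Cd3d, Cd3g, Cd2 and Cd8a at 0 in NEC. Markers of crypt stem cells and progenitors (9 genes) summed to 122, 136 and 99.3 CPM. In NEC against control 2 of them were higher and 2 lower, near the all-gene shares given above. Within that list Ascl2, a stem cell transcription factor, stood at 0.629, 17.8 and 1.05 CPM, Lgr5 at 2.01, 5.02 and 2.76 CPM, and Axin2, a Wnt target, at 47.4, 15.3 and 17.1 CPM. The smooth muscle, fibroblast and enteric neuron and glia sums were highest in NEC, as was the mitotic sum described next. The epithelial, enterocyte, B cell and T cell sums were not. The part of any of these markers in the differences described next was not tested. In bulk tissue, fewer cells of a type and less RNA per cell cannot be told apart.

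Summed over these members, mitotic transcripts were more abundant in the NEC library than in control, and replication transcripts were nearly level. Sums over further genes of both kinds, given below, were both higher in NEC. The 23 mitotic genes summed to 142 CPM in control, 299 in NEC and 137 in PCI34051+NEC, whereas the 25 replication genes summed to 326, 323 and 363 CPM. The mitotic sum was 2.10-fold higher in NEC than in control (95% counting interval 1.99 to 2.21), and the replication sum had a ratio of 0.991 (0.949 to 1.03). From NEC to PCI34051+NEC the mitotic sum was 2.18-fold lower (2.07 to 2.31) and the replication sum 1.12-fold higher (1.08 to 1.17). Between PCI34051+NEC and control the mitotic ratio was 0.960 (0.904 to 1.02) and the replication ratio 1.11 (1.07 to 1.16). Rrm2 alone gave 14.4% of the replication counts of PCI34051+NEC. In that library 17 of 25 replication genes lay below control and 15 of 23 measured lay below NEC, so most genes did not share the higher sums. There were 2.29 replication counts for each mitotic count in control (2.18 to 2.41), 1.08 in NEC (1.03 to 1.14) and 2.65 in PCI34051+NEC (2.52 to 2.79). Mki67 alone gave 26.4% of the mitotic counts of NEC. Without the member of each class that had the most counts, the ratios were 2.30, 1.26 and 2.61. Per kb of transcript the order of the libraries was the same, with ratios of 3.40, 1.87 and 4.23.

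Counted gene by gene, the classes were less uniform than their sums. A gene was counted as higher or lower when its log2(CPM + 1) differed by at least 2-fold, among genes with 1 CPM or more in at least 1 of the libraries compared. Between NEC and control, 8 of 22 measured mitotic genes were higher and 2 lower, and 6 of 25 replication genes were higher and 3 lower. Of all 14627 genes measured, 24.2% were higher and 22.9% lower (47.1% in either direction), so the replication count of higher genes lay near the background. The median log2 fold was 0.64 for the mitotic and -0.09 for the replication genes, against -0.03 for all genes. The replication median was above 0 with a minimum of 5 CPM (0.10), after removal of a GC and length trend (0.17) and after thinning (0.05). The mitotic median stayed above 0 in each alternative, from 0.39 to 1.01.

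Between PCI34051+NEC and NEC, 9 of 21 measured mitotic genes were lower and 1 higher, and 10 of 23 replication genes were lower and 5 higher. Among all 14410 genes measured, 25% were higher and 25.6% lower (50.6% in either direction). Median log2 folds were -0.85 for mitotic and -0.57 for replication genes, against 0.01 for all. This comparison shares the NEC library with the preceding one, so the 2 sets of values are not independent. Between PCI34051+NEC and control, 4 of 22 mitotic genes were lower and 3 higher, and 5 of 25 replication genes were lower and 2 higher, against 6.55% lower and 6.55% higher (13.1% in either direction) among all 13652 genes measured. Medians were -0.49 and -0.58, against -0.00 for all genes. With total counts in place of TMM, the share of higher genes among those called in that comparison was 33.5% in place of 50%, the all-gene median moved to -0.18 and the medians of the 2 classes were -0.66 and -0.70. The same scaling moved the all-gene median of PCI34051+NEC against NEC to -0.14, with class medians of -0.92 and -0.70. The difference between the mitotic and the replication median was 0.73 for NEC against control, -0.28 for PCI34051+NEC against NEC and 0.08 for PCI34051+NEC against control. Few members were measured through a single library: in the 3 comparisons, 2, 2 and 4 replication genes and 1, 1 and 2 mitotic genes were under 1 CPM in the other library.

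**Figure D2:**
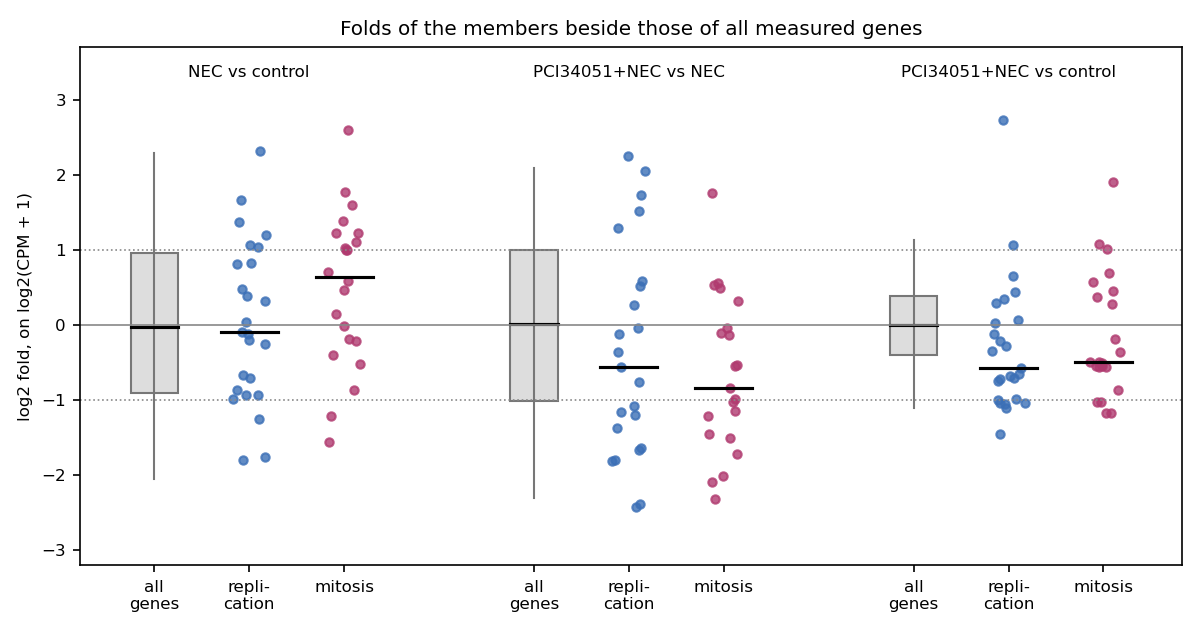
Log2 fold on log2(CPM + 1) (vertical axis) of each measured replication gene (blue) and mitotic gene (red) in the 3 comparisons, each from 1 library per group. Black bars are medians, the grey box and line span the middle 50% and 90% of all measured genes, and dotted lines mark 2-fold; the mitotic median is 0.64 for NEC against control and -0.85 for PCI34051+NEC against NEC.

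The 3 libraries were also ranked for each gene. NEC was the highest library for 12 of the 22 mitotic genes with a count (54.5%) and for 11 of 25 replication genes (44%). Among all measured genes the share was 42.4%, so the replication share lay near the background. NEC was the lowest for 4 of 22 mitotic and 8 of 25 replication genes, against 43.7% of all measured genes. PCI34051+NEC was the lowest for 11 of 22 mitotic and 13 of 25 replication genes, against 29.4% of all measured genes. Control was the highest for 7 mitotic and 9 replication genes, against 27.2% of all.

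**Figure D3:**
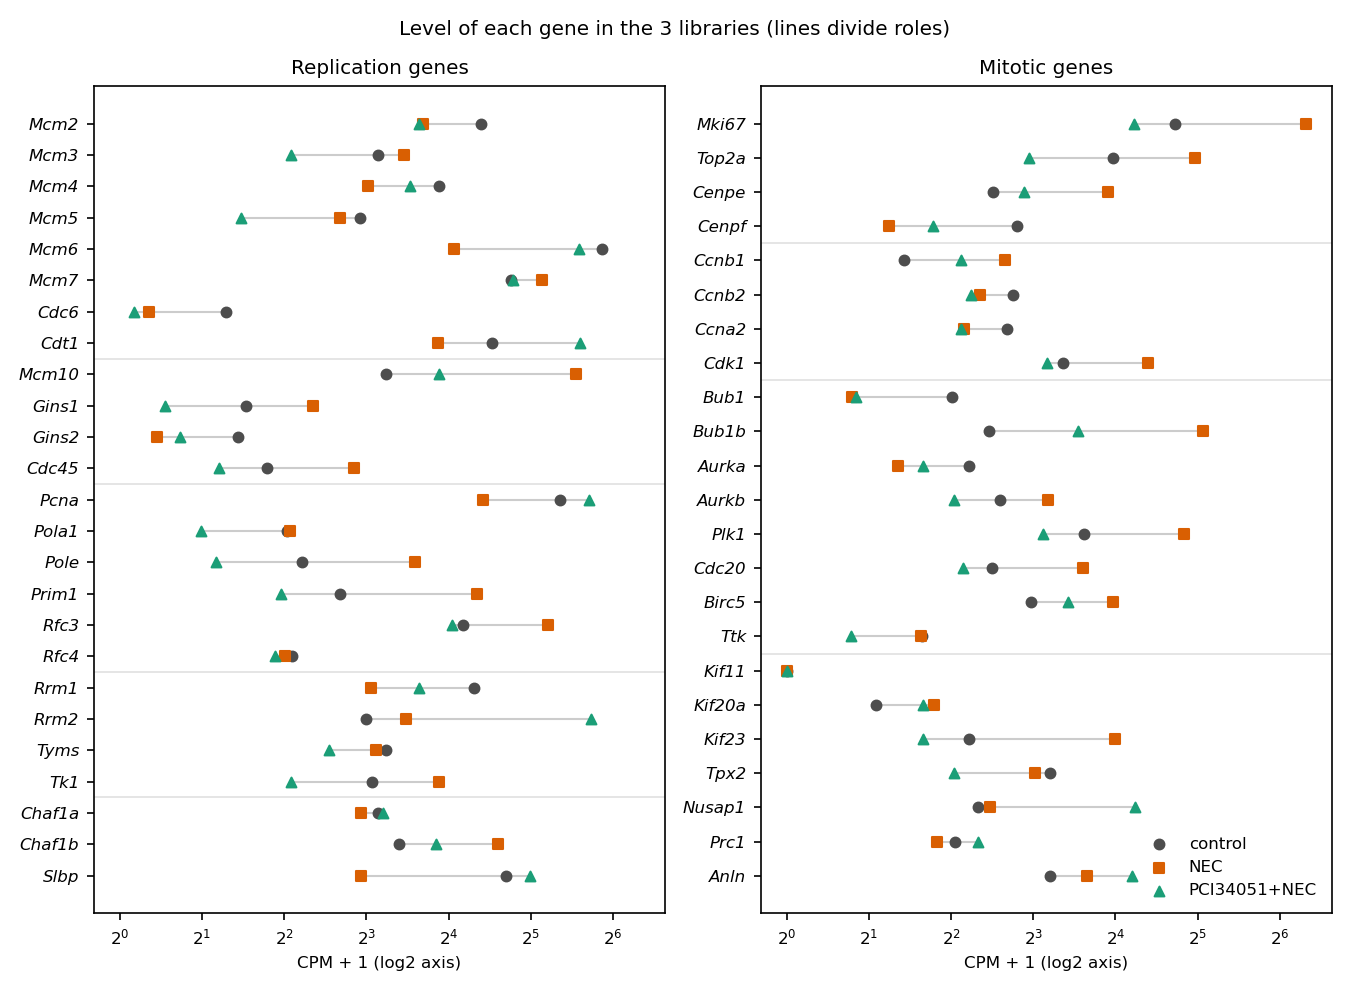
CPM + 1 on a log2 axis (horizontal) for each of the 48 genes, 1 point per library, with grey lines between roles. In NEC, Mki67 and Bub1b lie to the right of their points in the other libraries and Mcm6 and Slbp to the left of theirs. Rrm2 and Nusap1 are highest in PCI34051+NEC.

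Among the licensing genes, which load the helicase, the sum was 155 CPM in control, 98.3 in NEC and 148 in PCI34051+NEC. Mcm6 (ENSMUSG00000026355, mm10 chromosome 1, 128331590 to 128359664, minus strand), a subunit of the MCM ring, set most of the difference between control and NEC. From NEC to PCI34051+NEC, Cdt1 of the same group rose as well, from 13.6 to 47.5 CPM. Mcm6 had 914 counts in control, 173 in NEC and 715 in PCI34051+NEC, or 57.5, 15.8 and 47.0 CPM. NEC was low and the other libraries lay close together: Mcm6 was 3.64-fold lower in NEC than in control (3.09 to 4.31) and 2.97-fold higher in PCI34051+NEC than in NEC (2.51 to 3.53).

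Of the other subunits of the same ring, Mcm4 had the same order of libraries and the others did not. Mcm2 (ENSMUSG00000002870, chromosome 6, 88883474 to 88898780, minus strand) had 319, 130 and 175 counts, or 20.1, 11.9 and 11.5 CPM in control, NEC and PCI34051+NEC. It was 1.69-fold lower in NEC than in control (1.37 to 2.09), and the PCI34051+NEC library was no nearer to control than NEC was. Mcm4 stood at 13.8, 7.12 and 10.6 CPM, 1.93-fold lower in NEC than in control (1.49 to 2.54) and 1.48-fold higher in PCI34051+NEC than in NEC (1.13 to 1.97). Mcm7 stood at 26.1, 34.2 and 26.5 CPM, highest in NEC, and its exons overlap Ap4m1, Cops6 and microRNA genes, so it may share their counts. For Mcm3 and Mcm5 it was PCI34051+NEC that was low. Mcm3 had 124, 109 and 49 counts (7.80, 9.95 and 3.22 CPM) and was 2.42-fold lower in PCI34051+NEC than in control (1.73 to 3.45). Mcm5 had 105, 59 and 27 counts (6.61, 5.39 and 1.77 CPM) and was 3.72-fold lower (2.42 to 5.92). Per kb of transcript, the highest subunit of the ring was 6.76 times the lowest in control (Mcm6 at 13.2 and Mcm5 at 1.95 CPM per kb). That factor was 7.26 in NEC, from Mcm7 to Mcm5, and 20.6 in PCI34051+NEC, from Mcm6 at 10.8 to Mcm5 at 0.525 CPM per kb.

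The loading factors also parted. Cdt1, which brings the ring to origins, had 352, 149 and 723 counts, or 22.1, 13.6 and 47.5 CPM. It was highest in PCI34051+NEC, 3.49-fold above NEC (2.92 to 4.19) and 2.14-fold above control (1.89 to 2.44). Cdc6, its partner at origins, had 23 counts in control, 3 in NEC and 2 in PCI34051+NEC (1.45, 0.274 and 0.131 CPM). With so few counts its ratios are loose: it was 5.28-fold lower in NEC than in control, with an interval from 1.60 to 27.5.

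Genes that activate the loaded helicase summed to 14.5 CPM in control, 56.4 in NEC and 16.2 in PCI34051+NEC, most of it Mcm10. Mcm10 (ENSMUSG00000026669, chromosome 2, 4989714 to 5012791, minus strand), which triggers origin firing, had 134, 501 and 209 counts, or 8.43, 45.8 and 13.7 CPM. It was 5.43-fold higher in NEC than in control (4.48 to 6.62) and 3.33-fold lower in PCI34051+NEC than in NEC (2.83 to 3.94). Cdc45, a subunit of the active helicase, was also highest in NEC but lowest in PCI34051+NEC, at 2.45, 6.21 and 1.31 CPM. Gins1 stood at 1.89, 4.11 and 0.460 CPM. Gins2, a partner of Gins1 in the GINS complex, was instead highest in control at 1.70, 0.365 and 0.657 CPM, from 27, 4 and 10 counts. Cdc45 and Gins2 share exon sequence with Ufd1 and Gse1 on the opposite strand.

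Prim1, Pole and Rfc3 were likewise high in NEC, and other genes of the polymerase and clamp group were not. Prim1 (ENSMUSG00000025395, chromosome 10, 128015168 to 128030037, plus strand), the catalytic primase that lays RNA primers, had 86, 212 and 44 counts, or 5.41, 19.4 and 2.89 CPM. It was 3.58-fold higher in NEC than in control (2.77 to 4.65) and 6.70-fold lower in PCI34051+NEC than in NEC (4.82 to 9.49). Pole (ENSMUSG00000007080, chromosome 5, 110286306 to 110337474, plus strand), the leading-strand polymerase, had 58, 121 and 19 counts, or 3.65, 11.1 and 1.25 CPM. Its difference between PCI34051+NEC and NEC was the largest of the replication genes named for that comparison, at 8.85-fold lower (5.43 to 15.2). Pola1, the polymerase that extends primers, stood at 3.08, 3.20 and 0.985 CPM and was low in PCI34051+NEC only. Of the clamp loader genes, Rfc3 stood at 17.1, 36.1 and 15.5 CPM and was 2.12-fold higher in NEC than in control (1.81 to 2.48), whereas Rfc4 at 3.27, 3.01 and 2.69 CPM differed by less than its counting error.

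Pcna (ENSMUSG00000027342, chromosome 2, 132249162 to 132253314, minus strand), the sliding clamp and a common marker of S phase, ran the other way. It had 638, 224 and 781 counts, or 40.1, 20.5 and 51.3 CPM. It was 1.96-fold lower in NEC than in control (1.68 to 2.30) and 2.51-fold higher in PCI34051+NEC than in NEC (2.16 to 2.92). Pcna has pseudogenes of the same name, as have Tyms, Ccnb1 and Ccnb2, so reads may be split among copies. Pcna was thus lowest in NEC, where Prim1 and Pole were highest.

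In nucleotide supply, Rrm2 stood apart. Rrm2 (ENSMUSG00000020649, chromosome 12, 24708241 to 24714146, plus strand), the regulatory subunit of ribonucleotide reductase that is made in S phase, had 111, 111 and 793 counts, or 6.98, 10.1 and 52.1 CPM. It was 5.14-fold higher in PCI34051+NEC than in NEC (4.21 to 6.33) and 7.46-fold higher than in control (6.11 to 9.18). Rrm1, the large subunit of the same enzyme, stood at 18.8, 7.31 and 11.5 CPM and was highest in control. Tk1, the thymidine salvage kinase, was highest in NEC at 7.42, 13.8 and 3.22 CPM. Tyms, thymidylate synthase, stood at 8.43, 7.67 and 4.86 CPM. The 4 genes thus had 3 different highest libraries, and the sum of 41.6, 38.9 and 71.7 CPM was set by Rrm2 in PCI34051+NEC.

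Slbp (ENSMUSG00000004642, chromosome 5, 33634952 to 33652574, minus strand), which binds the stem-loop of replication-dependent histone mRNAs, had 396, 73 and 468 counts, or 24.9, 6.67 and 30.7 CPM. NEC was low: Slbp was 3.74-fold lower there than in control (2.91 to 4.87), and 4.61-fold higher in PCI34051+NEC than in NEC (3.60 to 5.99). The annotated Gm10459 overlaps its exons on the opposite strand. Chaf1a and Chaf1b, subunits of the chromatin assembly factor that places histones behind the fork, differed from Slbp and from each other. Chaf1b stood at 9.56, 23.3 and 13.3 CPM, 2.44-fold higher in NEC than in control (1.98 to 3.0), and Chaf1a at 7.80, 6.67 and 8.21 CPM.

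**Figure D4:**
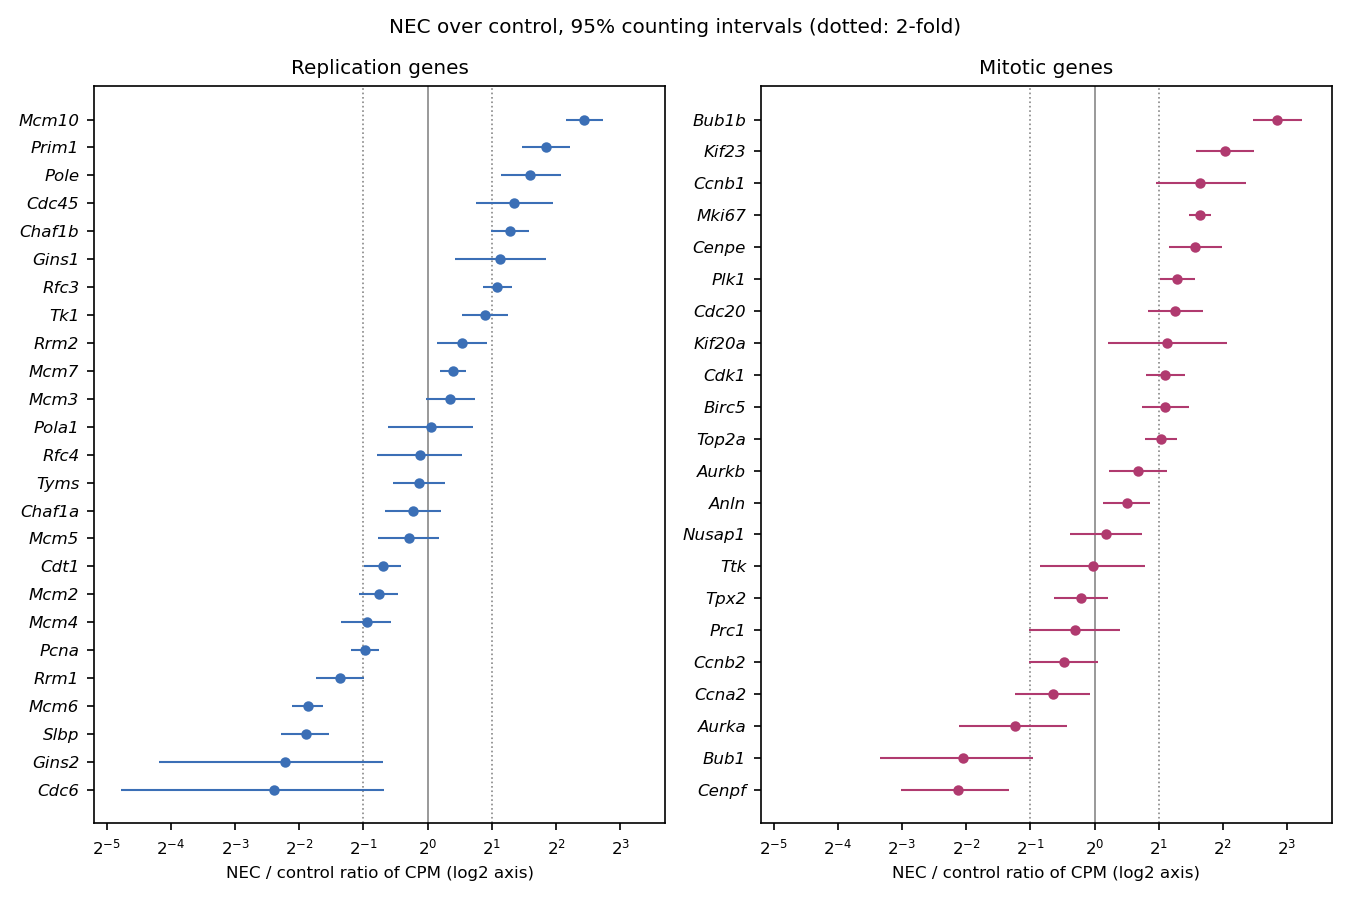
Ratio of CPM in NEC to CPM in control on a log2 axis (horizontal) for each gene with a count, sorted within replication and mitotic genes. Points are ratios of 1 library to 1 library and bars are 95% counting intervals. Bub1b (7.16-fold), Mcm10 (5.43-fold), Kif23 (4.08-fold) and Prim1 (3.58-fold) lie beyond 2-fold with their whole intervals. So do the replication genes Mcm6 and Slbp and the mitotic gene Cenpf on the lower side.

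Of the mitotic genes, those of chromosomes and centromeres had sums of 50.8 CPM in control, 124 in NEC and 33.2 in PCI34051+NEC. Mki67 (ENSMUSG00000031004, chromosome 7, 135689784 to 135716361, minus strand) encodes Ki-67, the coat of mitotic chromosomes and the usual stain for cycling cells. It had 403, 864 and 270 counts, or 25.4, 78.9 and 17.7 CPM. NEC was high, 3.11-fold above control (2.76 to 3.51), and PCI34051+NEC was 4.45-fold below NEC (3.88 to 5.12) and 1.43-fold below control (1.22 to 1.67).

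Top2a (ENSMUSG00000020914, chromosome 11, 98992943 to 99024189, minus strand), which untangles sister chromatids, had 234, 331 and 102 counts, or 14.7, 30.2 and 6.70 CPM. Its plain ratio of NEC to control was 2.05 (1.73 to 2.44), but on the log2(CPM + 1) scale the difference was 0.99, just short of 2-fold. PCI34051+NEC was 4.51-fold below NEC (3.60 to 5.69) and 2.20-fold below control (1.73 to 2.80). Cenpe and Cenpf, kinetochore proteins that take hold of microtubules, went opposite ways. Cenpe stood at 4.72, 14.0 and 6.37 CPM, 2.96-fold higher in NEC than in control (2.23 to 3.96). Cenpf (ENSMUSG00000026605, chromosome 1, 189640606 to 189688086, minus strand) had 95, 15 and 37 counts (5.98, 1.37 and 2.43 CPM) and was 4.36-fold lower in NEC than in control (2.52 to 8.10).

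Cyclins and their kinase summed to 22.1, 32.9 and 18.5 CPM. Cdk1 (ENSMUSG00000019942, chromosome 10, 69335146 to 69352938, minus strand), the kinase that starts mitosis, had 148, 219 and 122 counts, or 9.31, 20.0 and 8.01 CPM. It was 2.15-fold higher in NEC than in control (1.74 to 2.66) and 2.50-fold lower in PCI34051+NEC than in NEC (1.99 to 3.14). Its cyclin partners did not all follow it. Ccnb1 stood at 1.70, 5.30 and 3.35 CPM, highest in NEC. Ccnb2 at 5.73, 4.11 and 3.74 CPM and Ccna2 at 5.41, 3.47 and 3.35 CPM were highest in control.

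Mitotic kinases and checkpoint genes summed to 41.1 CPM in control, 98.3 in NEC and 38.3 in PCI34051+NEC. Bub1b (ENSMUSG00000040084, chromosome 2, 118598211 to 118641591, plus strand), which encodes the checkpoint protein BUBR1, had 72, 355 and 163 counts, or 4.53, 32.4 and 10.7 CPM. It was 7.16-fold higher in NEC than in control (5.54 to 9.35), and PCI34051+NEC lay between, 3.03-fold below NEC (2.51 to 3.67) and 2.36-fold above control (1.78 to 3.16). Its checkpoint partner Bub1 was highest in control, at 3.02, 0.731 and 0.788 CPM from 48, 8 and 12 counts.

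Plk1, the Polo kinase, stood at 11.3, 27.6 and 7.69 CPM, 2.45-fold higher in NEC than in control (2.03 to 2.96). Cdc20, which the checkpoint holds back from the anaphase-promoting complex, stood at 4.66, 11.1 and 3.42 CPM. Birc5, survivin, stood at 6.86, 14.7 and 9.72 CPM. Those 3 were highest in NEC, as was Aurkb, the Aurora kinase that survivin accompanies, at 5.03, 8.04 and 3.09 CPM. Aurka, the Aurora kinase of spindle poles, was highest in control at 3.65, 1.55 and 2.17 CPM. Ttk, the kinase upstream of the checkpoint, stood at 2.14, 2.10 and 0.723 CPM and was low in PCI34051+NEC only. The Aurora kinases A and B thus had transcripts with different highest libraries, as did the checkpoint proteins BUB1 and BUBR1 and the kinetochore proteins CENP-E and CENP-F.

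Spindle and cytokinesis genes had sums of 28.4, 43.2 and 46.8 CPM, the role among the mitotic genes in which PCI34051+NEC was not the lowest. Kif23 (ENSMUSG00000032254, chromosome 9, 61915905 to 61946774, minus strand), the motor of the central spindle, had 58, 163 and 33 counts, or 3.65, 14.9 and 2.17 CPM. It was 4.08-fold higher in NEC than in control (3.01 to 5.60) and 6.87-fold lower in PCI34051+NEC than in NEC (4.70 to 10.3). Nusap1 (ENSMUSG00000027306, chromosome 2, 119618298 to 119651244, plus strand), which bundles spindle microtubules near chromosomes, had 64, 50 and 272 counts, or 4.03, 4.57 and 17.9 CPM. It was highest in PCI34051+NEC, 3.91-fold above NEC (2.89 to 5.40) and 4.44-fold above control (3.37 to 5.92), and Oip5 overlaps its exons on the opposite strand.

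Anln, the scaffold of the cleavage furrow, was also highest in PCI34051+NEC at 8.18, 11.6 and 17.5 CPM, 2.14-fold above control (1.73 to 2.66). Prc1, which cross-links the central spindle, stood at 3.15, 2.56 and 4.01 CPM with counting intervals of its ratios that include 1. Tpx2, the activator of Aurora A at the spindle, had 131, 78 and 47 counts (8.24, 7.12 and 3.09 CPM) and was 2.67-fold lower in PCI34051+NEC than in control (1.90 to 3.81). Kif20a, a cytokinesis motor, stood at 1.13, 2.47 and 2.17 CPM. Rrm2 and Nusap1 were the members counted as higher in PCI34051+NEC than in control under each of the 12 alternative settings.

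**Figure D5:**
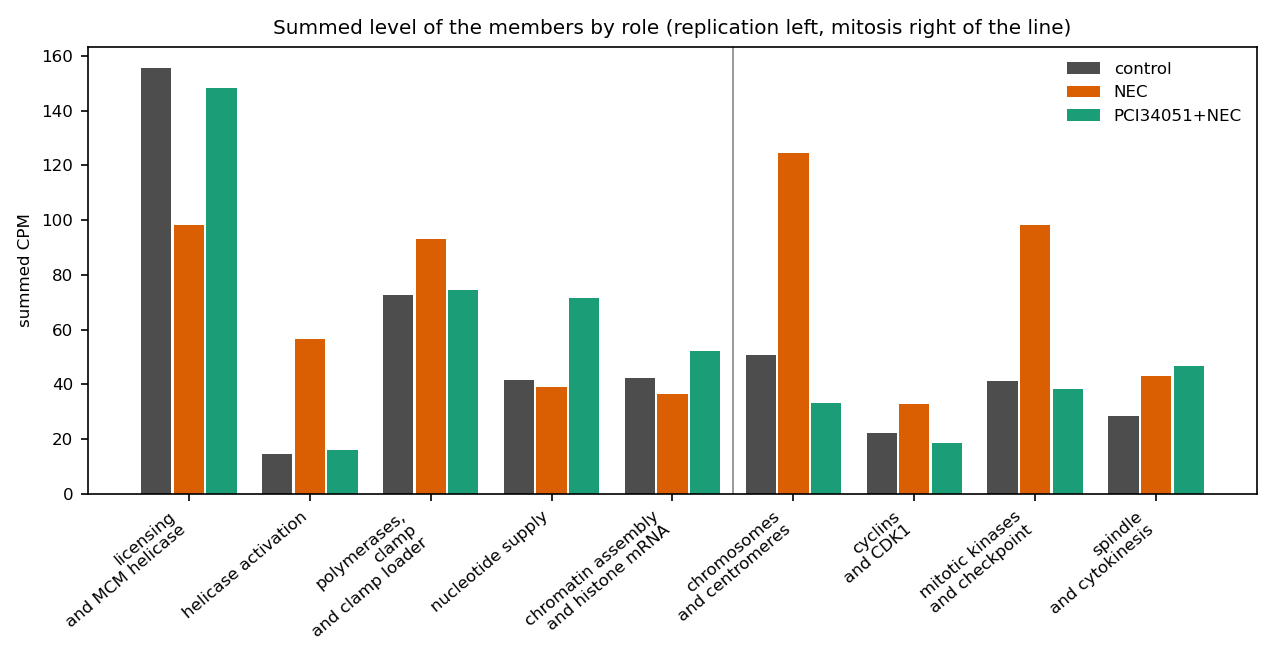
Summed CPM (vertical axis, from 0) of the members by role, 1 bar per library and no error bars because each group is 1 library. Helicase activation, chromosomes and centromeres, and mitotic kinases and checkpoint are highest in NEC (56.4, 124 and 98.3 CPM), whereas licensing is lowest there (98.3 CPM).

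Other genes of the same pathways were read from lists of further replication, mitosis and cell cycle genes. The 52 further replication genes summed to 685 CPM in control, 952 in NEC and 652 in PCI34051+NEC. The 70 further mitotic genes summed to 528, 712 and 515 CPM. By sums, the further replication genes were thus higher in NEC too, unlike the 25 members. Of 50 further replication genes measured between NEC and control, 10 were higher (20%) and 6 lower (12%), against 24.2% and 22.9% of all genes (median log2 fold 0.06). Pold1, the catalytic subunit of polymerase delta, stood at 10.8, 61.4 and 6.77 CPM, and Timeless, which protects forks, at 4.91, 26.9 and 2.63 CPM. Chtf18, of an alternative clamp loader, stood at 1.89, 10.6 and 0.985 CPM, and Rnaseh2a at 15.5, 56.6 and 19.0 CPM, so these 4 were highest in NEC, like Prim1 and Pole. Between PCI34051+NEC and NEC 6 of 50 were higher and 13 lower (median -0.37), against 25% and 25.6% of all genes. Set against control, PCI34051+NEC had 1 of 49 higher and 3 lower (median -0.13), against 6.55% each way.

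Of 67 further mitotic genes measured between NEC and control, 16 were higher (23.9%) and 7 lower (10.4%), against 24.2% and 22.9% of all genes (median 0.27). Cdc25c, the phosphatase that activates CDK1, stood at 1.13, 15.1 and 1.25 CPM and was 13.3-fold higher in NEC than in control (8.16 to 23). Ndc80, of the outer kinetochore, stood at 2.58, 13.1 and 1.05 CPM, and Ska3, which works beside it, at 0.944, 7.31 and 1.12 CPM. Between PCI34051+NEC and NEC, 6 of 65 were higher and 23 lower (35.4%, against 25.6% of all genes; median -0.58). Relative to control, 3 of 67 in PCI34051+NEC were higher and 6 lower (9.0%, against 6.55% of all genes; median -0.40). Atad2 and Nek2 were listed at 0 counts in all 3 libraries, as was Skp2 of the next list.

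Regulators of the entry to S phase were read next, beside 24.2% higher and 22.9% lower among all genes for NEC against control and 25% and 25.6% for PCI34051+NEC against NEC. Of 16 measured cyclins, kinases and E2F factors of G1 and S phase, 1 was higher and 7 were lower in NEC than in control (median -0.84), and 5 were higher and none lower in PCI34051+NEC than in NEC (median 0.55). E2f8, a repressor of the E2F family, stood at 35.4, 5.94 and 24.6 CPM, E2f3 at 23.4, 6.67 and 15.8 CPM and Ccnd1, cyclin D1, at 7.24, 1.46 and 2.30 CPM. Myc, the gene of that list counted as higher in NEC, stood at 5.73, 27.3 and 20.2 CPM. CDK inhibitors slow these kinases and pocket proteins restrain E2F. The list of such genes also holds the E2F factors E2f4, E2f5 and E2f6, which are counted with the rest. Beside the same all-gene shares, none of its 12 measured genes was higher and 4 were lower in NEC than in control (median -0.60). From NEC to PCI34051+NEC, 7 were higher and 1 lower (median 1.07). Cdkn1c, which encodes the inhibitor p57, stood at 811, 225 and 685 CPM, and Cdkn2b, p15, at 24.5, 7.31 and 27.7 CPM.

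Regulators of G2 and M phase gave 3 higher and 1 lower of 12 in NEC against control (median -0.04), where 24.2% and 22.9% of all genes were counted. Lin37, a subunit of the DREAM complex that acts through CHR elements, stood at 24.8, 130 and 16.9 CPM and was 5.25-fold higher in NEC than in control (4.69 to 5.88). Mybl2 stood at 2.77, 6.76 and 2.04 CPM. Pkmyt1 and Wee1, kinases that hold CDK1 inactive, went opposite ways, at 4.97, 12.9 and 4.86 CPM and at 19.2, 8.86 and 43.2 CPM. Of the replication-dependent histone genes and H2A variants listed, 9 of 16 were measured between NEC and control. Of these 4 were higher and 3 lower (median 0.55), few genes to set beside those shares. Hist1h1c, a linker histone, stood at 311, 72.4 and 404 CPM and Hist1h2bc at 261, 50.6 and 118 CPM. Both were lowest in NEC, as Slbp was. The 16 listed genes summed to 631, 196 and 577 CPM, much of it from Hist1h1c and Hist1h2bc. The list was thus lower in NEC by its sum but not by its median fold.

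The promoter letters were also set beside the NEC against control folds, as a description over few genes. The 8 measured replication genes with E2F-type letters had a median log2 fold of -0.11 and the 13 without had -0.09. The 14 measured mitotic genes with CHR-type letters had a median of 0.72 and the 4 without had 1.11. With CHR-type letters 4 replication genes had a median of 0.71, against -0.12 for the 17 without, and with CCAAT 15 mitotic genes had 1.03, against 0.46 for the 3 without. Mcm6 and Rfc3, whose promoters are printed above with E2F-type letters, were 3.64-fold lower and 2.12-fold higher in NEC. Cenpf and Bub1 hold CHR-type letters, as Mki67, Bub1b and Kif23 do, and were lower in NEC where those 3 were higher. GC content had a Spearman correlation of 0.08 with the NEC against control fold over 47 members and of 0.18 over 14595 genes, across genes of the same libraries, which are not independent replicates.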

How the data were processed

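RNA of whole intestine was sequenced as 150 bp paired-end reads, per the labels' protocols, from 3 groups with 1 library each. The deposited table holds raw counts by gene symbol for all 3 libraries. Per the submitters' processing notes, the build was mm10. How reads were aligned, annotated and filtered, and whether strand was used, is not given in the sources used here. The exons of 15 members that overlap another gene, and the 4 members with pseudogenes of the same name, may therefore share counts. Identifiers and coordinates are from GENCODE M21 (21926 of 21983 symbols matched), with lengths of the longest protein-coding transcript. Promoter windows are from RefSeq, build GRCm38.p6.

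Scaling used TMM from edgeR 4.0.16 (R 4.3.3), with factors of 1.05, 1.03 and 0.923. A pseudocount of 1 CPM was added for log2 folds, which understates differences of low genes. Where an interval follows a fold, the fold is the quotient of the CPM values and the 95% interval is Clopper-Pearson, conditional on the counts of both libraries. Genes needed 1 CPM in at least 1 library of a comparison. Calculations used Python 3.11.15 with scipy 1.17.1, pandas 2.3.3, numpy 2.4.6 and matplotlib 3.10.9, and the fold and interval steps were tested on simulated data. The members and lists were chosen with earlier results of these data known. Full values are given for Pcna, Mcm2, Mki67, Top2a and Cdk1 and for the 4 members of each class with the largest difference per comparison at 5 CPM or more, and the other members with their CPM. Of other lists, up to 4 genes with the largest NEC against control difference at 5 CPM or more could be named. Alternatives were scaling by total counts or by DESeq2 1.42.0 size factors, TMM of the 2 libraries compared, TMM without mitochondrial and the top 50 genes, pseudocounts of 0.25 and 4, no filter, at least 5 CPM, thinning to the smallest library, a 1.5-fold threshold, counting intervals beyond 2-fold, removal of a GC and length trend (30 bins), and other promoter letters. The ratio without the top members was added after seeing the data.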

Additional observations from a re-analysis of the deposited data

How the results depend on the processing

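No paired analysis was possible because each group has 1 library, and for the same reason no replicate could be left out. No result changed sign among called members. Called were 19 of 47 measured members in NEC against control, 25 of 44 in PCI34051+NEC against NEC and 14 of 47 in PCI34051+NEC against control. Of all measured genes, 47.1%, 50.6% and 13.1% were called in the same order. Under all 12 settings 9, 15 and 2 of these members were called. The all-gene shares moved with the setting too. For NEC against control they were 34.3% higher and 34.2% lower at 1.5-fold, and 15.4% and 17.0% with a pseudocount of 4. Numbers below are counts of genes at least 2-fold apart, with the value as reported in brackets. NEC against control, replication higher [6]: 3 with a pseudocount of 4 and 3 with counting intervals beyond 2-fold. Replication lower [3]: 5 with TMM without mitochondrial and top 50 genes, 5 with a pseudocount of 0.25, 5 after thinning and 9 at 1.5-fold. Mitotic higher [8]: 5 with a pseudocount of 4 and 5 with counting intervals. Mitotic lower [2]: 0 with a pseudocount of 4, and 1 with at least 5 CPM, with counting intervals and with the GC and length trend removed. The further replication and mitotic genes, lower [13]: 2 with a pseudocount of 4, 7 with at least 5 CPM and 23 at 1.5-fold. PCI34051+NEC against NEC, replication lower [10]: 5 with a pseudocount of 4. Further genes higher [12]: 3 with a pseudocount of 4, 6 with at least 5 CPM, 21 at 1.5-fold, 6 with counting intervals and 4 with the trend removed. Further genes lower [36]: 23 with a pseudocount of 4. PCI34051+NEC against control, replication higher [2]: 1 with total counts, with a pseudocount of 4 and with counting intervals. Replication lower [5]: 8 with a pseudocount of 0.25, 0 with 4, 2 with at least 5 CPM, 12 at 1.5-fold and 2 with counting intervals. Mitotic higher [3]: 1 with total counts, with a pseudocount of 4, with counting intervals and with the trend removed. Mitotic lower [4]: 0 with a pseudocount of 4, 2 after thinning and 1 with counting intervals. Further genes higher [4]: 1 with total counts, 2 with a pseudocount of 4, 8 at 1.5-fold and 2 with counting intervals. Further genes lower [9]: 18 with a pseudocount of 0.25, 1 with 4, 5 with at least 5 CPM, 31 at 1.5-fold and 2 with counting intervals. The cause of these shifts was not tested. The ratio of replication to mitotic counts in NEC was 1.26 without the members with the most counts. With E2F forms of 7 letters, without their opening T, the share of replication promoters was 68.2%, against 9.57% of all windows. The mitotic less the replication median for PCI34051+NEC against control ranged from -0.29 to 0.18, that for PCI34051+NEC against NEC from -0.72 with at least 5 CPM to -0.05 with a pseudocount of 4 or thinning (reported as -0.28), and that for NEC against control from 0.44 to 0.92. Depth limits the members with few counts, such as Cdc6, Gins2 and Bub1.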
